A study of Mus musculus with 6 samples.

Results

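The genes described here are the mouse apolipoprotein L family in macrophages sorted from omentum (OM) and from mesenteric adipose tissue (MY). The members are Apol7a, Apol7b, Apol7c, Apol7e, Apol8, Apol9a, Apol9b, Apol10a, Apol10b and Apol11b, which were grouped because of the measured mesenteric level of Apol7c in these same libraries. The family was thus chosen from its values, and the differences between the tissues are given as a description with no test. Of the 10 members, 9 had a row among the 23946 genes of the deposited table and Apol7e had none. Of the 9 members, 6 reached 1 FPKM (fragments per kilobase of transcript per 1000000 mapped fragments) in at least 1 library, the level used here to call a gene expressed.

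All cells came from C57BL/6 mice, which the methods give as female and a few weeks old, with no genetic change in any group. The groups were naive mice and mice 24 h or 7 d after intraperitoneal injection of ID8, a mouse ovarian carcinoma cell line of the same strain background. Omenta and mesenteries of 9 mice, handled in 3 groups of 3, were dissociated, and CD45+CD11b+F4/80+ cells were sorted from each tissue. Pooling of tissue from 3 mice is stated for the omenta, and the sources used here do not give it for the mesenteries. Each of the 6 conditions had 1 library, so there is no replicate spread, no p-value is given, and each comparison is between single libraries. In these sorted bulk samples, a higher share of cells that carry a transcript and more of that transcript per cell cannot be told apart.

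Apolipoprotein L proteins are small lipid-binding, partly membrane-inserting proteins that mostly stay inside the cell. The human founder of the family, APOL1, circulates on high-density lipoprotein and lyses trypanosomes by forming channels in their membranes. In the mouse the family has expanded into a cluster of tandem copies. Apol9a and Apol9b are known interferon-stimulated genes, and the protein of Apol7c has been described in dendritic cells, where it acts on the membrane of the phagosome during cross-presentation of antigen.

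All 10 members lie on chromosome 15 of NCBIM37 (mm9), from 77218647 to 77585678, a stretch of 367 kb between Rbfox2 and Myh9. Apol7c spans 77355297 to 77363745 on the minus strand, and Apol10b, also on the minus strand, starts 62.8 kb from the start of Apol7c. The upstream sequences of the members whose levels moved most are shown here, with Apol7e and Apol10a for comparison, because several carry the same short motif close to the start. Each runs from 120 bases before to 5 bases after the RefSeq start site, in the direction of transcription. The sequences are those RefSeq gives for GRCm38.p6, and the positions are those of their exact match in NCBIM37, taken nearest to the gene itself for Apol9a and Apol9b, whose windows match at both genes. Capitals mark the core of the interferon-stimulated response element, GAAANNGAA, which on the opposite strand reads TTCNNTTTC.
Apol7c, chr15:77363740-77363865 (- strand): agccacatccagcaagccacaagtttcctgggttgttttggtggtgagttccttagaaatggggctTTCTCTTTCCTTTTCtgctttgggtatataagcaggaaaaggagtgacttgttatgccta
Apol7b, chr15:77277885-77278010 (- strand): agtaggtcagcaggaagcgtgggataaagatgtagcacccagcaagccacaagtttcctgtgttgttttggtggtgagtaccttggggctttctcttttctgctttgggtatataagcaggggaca
Apol7e, chr15:77529199-77529324 (+ strand): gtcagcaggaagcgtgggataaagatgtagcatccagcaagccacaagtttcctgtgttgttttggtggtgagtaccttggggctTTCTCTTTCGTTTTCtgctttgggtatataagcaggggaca
Apol10b, chr15:77426550-77426675 (- strand): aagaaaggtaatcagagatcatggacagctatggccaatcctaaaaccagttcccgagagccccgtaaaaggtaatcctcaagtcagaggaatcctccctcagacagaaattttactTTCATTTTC
Apol9a, chr15:77241505-77241630 (- strand): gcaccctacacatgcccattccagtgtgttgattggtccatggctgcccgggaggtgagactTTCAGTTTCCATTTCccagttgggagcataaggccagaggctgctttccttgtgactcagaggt
Apol9b, chr15:77559382-77559507 (+ strand): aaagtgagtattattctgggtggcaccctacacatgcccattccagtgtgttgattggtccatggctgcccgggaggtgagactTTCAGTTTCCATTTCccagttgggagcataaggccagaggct
Apol10a, chr15:77307357-77307482 (+ strand): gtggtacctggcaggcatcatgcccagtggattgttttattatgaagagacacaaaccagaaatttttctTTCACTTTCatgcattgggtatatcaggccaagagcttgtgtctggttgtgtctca

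Of the 10 members, 7 held the GAAANNGAA core on either strand of the RefSeq promoter window, which runs from 250 bases before the start to 50 bases after it. Over all genes of the RefSeq table, 9.76% of 27025 held it. The windows of Apol7c, Apol7e, Apol9a and Apol9b each held 2 overlapping matches, which lay between 54 and 40 bases before the start in Apol7c. The windows of Apol7a, Apol7b and Apol8 held none. Other motifs were rarer among the members. TTCNNNGAA, the STAT dimer site, was found in 2 members against 9.55% of all genes, and the ETS-IRF composite GGAANNGAA in 1 member against 9.42%. The AP-1 site TGANTCA lay in the windows of Apol9a and Apol9b and in 8.97% of all genes, and the PU.1 core GAGGAAGT in no member and in 3.69% of all genes. A match of letters is a description of the sequence and no binding was measured. The copies are also not independent, since the windows of Apol7b and Apol7e were identical over 97.7% of their length and those of Apol7b and Apol7c over 79.3%. Among windows with the core, this was 92.7% for Apol9a and Apol9b, 89.3% for Apol10a and Apol11b, and 80.7% for Apol7c and Apol7e.

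Apol7c was the highest member in all 6 libraries. Its level was 12.1 FPKM in OM naive, 8.26 in OM 24 h and 14.1 in OM 7 d, and 853 in MY naive, 1144 in MY 24 h and 604 in MY 7 d. All mesenteric libraries were high, all omental libraries were low, and the lowest mesenteric value was 42.8 times the highest omental one. Ranked by FPKM among the 23946 genes, Apol7c stood at places 50, 38 and 86 in the mesenteric libraries and between places 5478 and 6981 in the omental ones. Within a tissue, the highest library exceeded the lowest by 1.71 times in the omentum and 1.89 times in the mesentery.

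**Figure D1:**
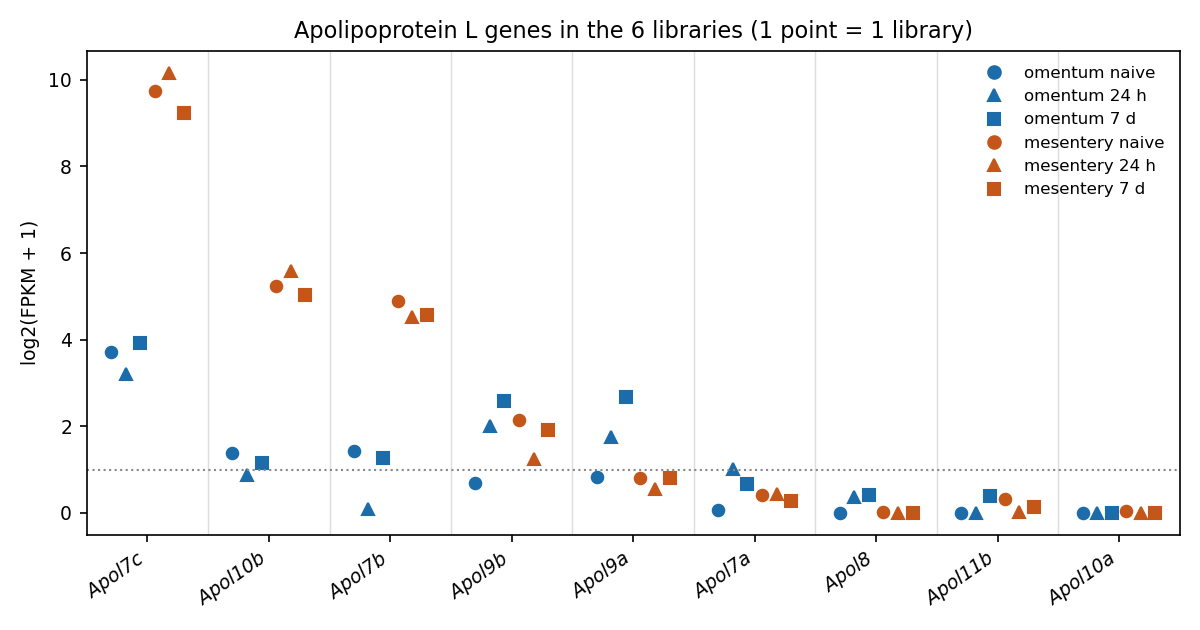
Level of each apolipoprotein L gene of the table on the log2(FPKM + 1) scale, with 1 point per library, colour for the tissue and shape for the time point, and a dotted line at 1 FPKM. Apol7c, Apol10b and Apol7b have all mesenteric points above all omental points, whereas Apol9a and Apol9b are highest in OM 7 d, at 5.42 and 4.95 FPKM.

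Apol10b, whose protein is 31.2% identical to that of Apol7c over the alignment, had the same split at a lower level. It measured 1.62 FPKM in OM naive, 0.844 in OM 24 h and 1.24 in OM 7 d, against 36.9 in MY naive, 46.7 in MY 24 h and 31.7 in MY 7 d. Again the groups did not overlap, and the lowest mesenteric value was 19.6 times the highest omental one. Apol7b, a close copy of Apol7c with 80.5% protein identity, measured 1.70 FPKM in OM naive, 0.0715 in OM 24 h and 1.42 in OM 7 d. In the mesentery it measured 28.9 FPKM in MY naive, 21.9 in MY 24 h and 22.9 in MY 7 d, so its lowest mesenteric value was 12.9 times its highest omental one. For all 3 genes OM 24 h was the lowest library, and for Apol7c and Apol10b MY 24 h was the highest.

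Taken as log2(FPKM + 1), a scale that shrinks differences of low genes, mesentery minus omentum was 6.03 in naive mice, 6.95 at 24 h and 5.32 at 7 d for Apol7c. For Apol10b the difference was 3.85, 4.69 and 3.87 at these times, and for Apol7b 3.47, 4.42 and 3.30. Among the 13064 expressed genes ranked by this difference, Apol7c was number 3 in naive mice, number 6 at 24 h and number 4 at 7 d. Apol10b ranked between 19 and 36 and Apol7b between 39 and 52. In all, 3 members had every mesenteric library at least 2-fold above every omental library, beside 2.12% of all expressed genes. Since this contrast chose the family, nothing is read from that count.

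The family total was 16.9 FPKM in OM naive, 15.9 in OM 24 h and 28.4 in OM 7 d, and 924 in MY naive, 1215 in MY 24 h and 663 in MY 7 d. Apol7c made up between 91.2% and 94.2% of it in the mesentery. In the omentum its share was 71.8% in naive mice, 52.0% at 24 h and 49.7% at 7 d. The second member was Apol10b in all 3 mesenteric libraries, and in the omentum Apol7b in naive mice, Apol9b at 24 h and Apol9a at 7 d. Without Apol9a and Apol9b the omental share of Apol7c stayed between 78.3% and 78.7%.

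Apol9a and Apol9b, the interferon-stimulated pair, did not follow Apol7c. Apol9a measured 0.783 FPKM in OM naive, 2.38 in OM 24 h and 5.42 in OM 7 d, and 0.754 in MY naive, 0.459 in MY 24 h and 0.744 in MY 7 d. Both naive libraries were at like levels, and OM 24 h and OM 7 d stood above all other libraries. Apol9b measured 0.614 FPKM in OM naive, 3.02 in OM 24 h and 4.95 in OM 7 d, and 3.40 in MY naive, 1.39 in MY 24 h and 2.80 in MY 7 d. Its groups overlapped, with OM naive lowest and OM 7 d highest. The Apol9b level was between 3.02 and 4.50 times that of Apol9a in the mesentery and between 0.784 and 1.27 times in the omentum.

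The other members were low throughout. Apol7a measured 0.0520 FPKM in OM naive, 1.02 in OM 24 h and 0.593 in OM 7 d, and 0.325 in MY naive, 0.351 in MY 24 h and 0.218 in MY 7 d. It counted as expressed through OM 24 h alone. Apol8 was listed at 0 in OM naive, MY 24 h and MY 7 d and reached at most 0.327 FPKM, in OM 7 d. Apol11b was listed at 0 in OM naive and OM 24 h and reached at most 0.312 FPKM, also in OM 7 d. Apol10a was listed at 0 in 5 libraries and at 0.0341 FPKM in MY naive.

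The level of several members depends on how the authors' pipeline placed reads shared between near-identical copies, which the sources used here do not give. Cut into stretches of 75 bases, the read length, 64.4% of the Apol7b transcript also occurs in transcripts of other genes of the cluster, nearly all of it in Apol7e, whose protein is 98.6% identical. The Apol7b values may therefore hold reads of Apol7e and cannot be split between them. Apol9a and Apol9b share 42.4% of their stretches and 96.8% of their residues, so their ratio is uncertain as well. Apol7c shared 8.32% with other transcripts, Apol10b 1.78% and Apol8 none. Searched against the genome sequence of the cluster, 28.7% of the stretches of Apol7c and 5.60% of those of Apol10b also occurred elsewhere in it, and none of those of Apol8.

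A gene model within the cluster, Gm8221, had a pattern close to that of Apol7c. It lies on the plus strand at 77452631 to 77456620, between Apol10b and Apol11b, and is annotated as protein coding by GENCODE and as a pseudogene by RefSeq. It measured 0.597 FPKM in OM naive, 0.145 in OM 24 h and 0.558 in OM 7 d, against 85.4 in MY naive, 106 in MY 24 h and 49.2 in MY 7 d. Its 483-base transcript aligned to Apol7c over 420 bases with 97.6% identity, and 22.5% of the stretches of Apol7c also occur in the genome within 5 kb of it. Its level was between 0.0814 and 0.1001 times that of Apol7c in the mesentery and between 0.0175 and 0.0493 times in the omentum. Whether its values are reads of Apol7c was not tested.

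**Figure D2:**
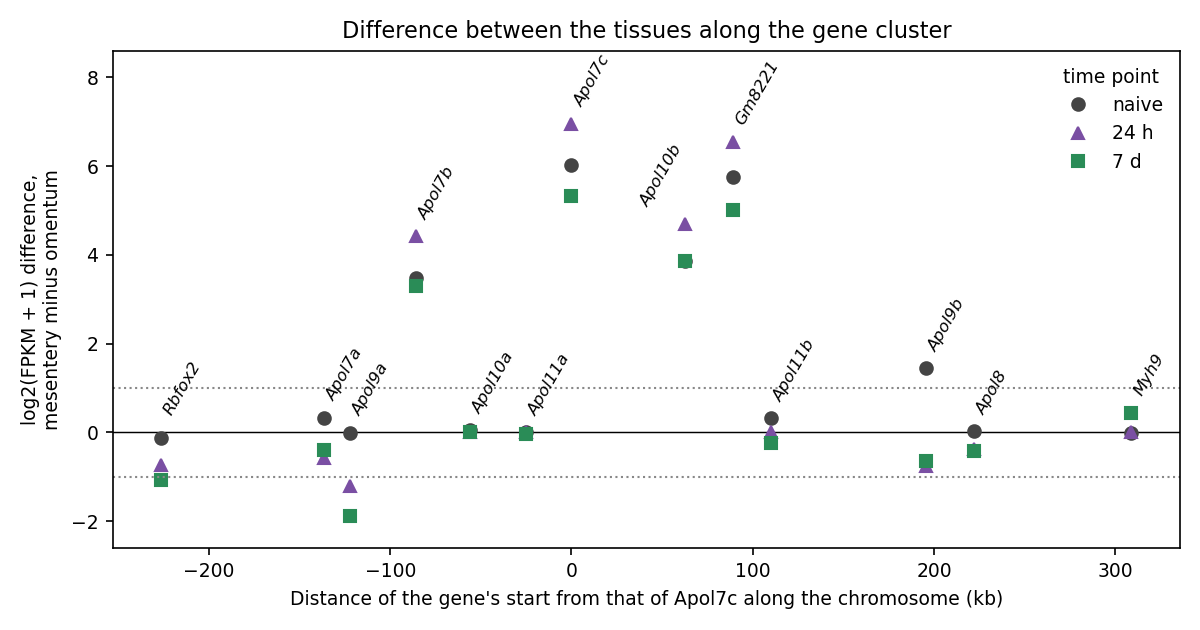
Mesentery minus omentum difference on the log2(FPKM + 1) scale for genes of the cluster at the 3 time points, against the distance of each gene's start from that of Apol7c in kb, with dotted lines at a 2-fold difference. Apol7b, Apol7c, Apol10b and Gm8221 stand above 3 at every time point, and the genes between and around them do not.

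The difference between the tissues was not shared along the whole cluster. Apol10a and Apol11a, whose starts lie 56.3 kb and 25.04 kb from that of Apol7c and between those of Apol7b and Apol7c, were at or near 0 in all libraries. Apol11a reached at most 0.0177 FPKM. Of the genes that flank the cluster, Myh9, the heavy chain of non-muscle myosin, measured 39.1 to 92.5 FPKM in the omentum and 43.9 to 91.2 in the mesentery, and the tissues overlapped. Rbfox2, a splicing factor, measured 0.180 to 1.16 FPKM in the omentum and 0.0243 to 0.0735 in the mesentery. Apol6, farther away on the chromosome, reached at most 0.442 FPKM and Apol7d at most 0.0857 FPKM. Apold1, an early-response gene of the endothelium that is only distantly related, was between 0.564 and 1.53 FPKM in the omentum and between 0.05004 and 0.149 in the mesentery.

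Counted by a 2-fold difference between the tissues, 4 of the 6 expressed members were higher and 0 lower in the mesentery of naive mice, beside 8.05% and 8.18% of all expressed genes. The fourth was Apol9b. At 24 h, 3 members were higher and Apol9a was lower, beside 10.2% and 13.9% of all expressed genes. At 7 d the same 3 members, Apol7b, Apol7c and Apol10b, were higher and Apol9a was again lower, beside 4.99% and 14.1%. The median difference of the 6 members was 2.46 in naive mice, 1.92 at 24 h and 1.46 at 7 d, and that of all expressed genes was between -0.01 and 0.01. These medians rest on members chosen with the tissue difference in view.

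The sorted cells carried the labelled macrophage markers in both tissues, and marker genes of other cells differed between the tissues as well. Emr1, the gene of F4/80, measured 26.5 to 135 FPKM in the omentum and 20.5 to 68.6 in the mesentery, and Csf1r, the receptor of the macrophage growth factor, 103 to 570 and 121 to 313. The 10 macrophage markers summed to 7551 to 29967 FPKM in the omentum and 3531 to 5257 in the mesentery, with OM 24 h highest. Most of this sum was Lyz2, at 6791 to 24780 FPKM in the omentum and 2571 to 3578 in the mesentery. The median mesentery minus omentum difference of the 10 was -0.51 in naive mice, -1.24 at 24 h and 0.39 at 7 d. At these times 3, 5 and 3 of the 10 were at least 2-fold lower in the mesentery, beside 8.18%, 13.9% and 14.1% of all expressed genes. None was higher by as much, beside 8.05%, 10.2% and 4.99%. Itgam, the gene of CD11b, measured 58.7 to 151 FPKM in the omentum and 27.8 to 52.0 in the mesentery. T cell markers (6 of 6), natural killer (NK) cell markers (4 of 5) and 1 of 4 plasmacytoid dendritic cell markers had every mesenteric library at least 2-fold above every omental one. Of all expressed genes, 2.12% had this split. Neutrophil markers (3 of 4), fibroblast markers (4 of 5), mesothelial markers (5 of 5) and markers of type 2 conventional dendritic cells (3 of 5) had every omental library at least 2-fold above every mesenteric one. No marker of B cells, mast cells, endothelium or gut epithelium was separated in either direction. The share of all expressed genes with every omental library above is not given here, so those counts have no background and nothing is read from them.

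Most markers of mature dendritic cells, the activated state that migrates to lymph nodes, were higher in the mesentery, as were Apol7c, Apol10b and Apol7b. Of the 10 genes listed, 7 had every mesenteric library at least 2-fold above every omental library, and Ccl17, Cd83 and Il12b did not. The share of all expressed genes with this split was 2.12%, as given above. The T cell-attracting chemokine Ccl17 was at 20.9 FPKM in OM naive and 21.0 in MY naive, and at 7 d Ccl17 and Il12b, a subunit of interleukin-12, were lower in the mesentery by 2-fold or more, with differences of -2.38 and -1.29. The 10 markers summed to 517 FPKM in OM naive, 402 in OM 24 h and 679 in OM 7 d, against 2519 in MY naive, 2943 in MY 24 h and 2116 in MY 7 d. As for Apol7c, MY 24 h was highest, MY 7 d was the lowest mesenteric library and OM 24 h was the lowest of all. Ccr7, the chemokine receptor that guides these cells, measured 93.8 FPKM in OM naive, 49.2 in OM 24 h and 116 in OM 7 d, and 526 in MY naive, 761 in MY 24 h and 661 in MY 7 d. What part such cells have in the levels of the apolipoprotein L genes was not tested.

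**Figure D3:**
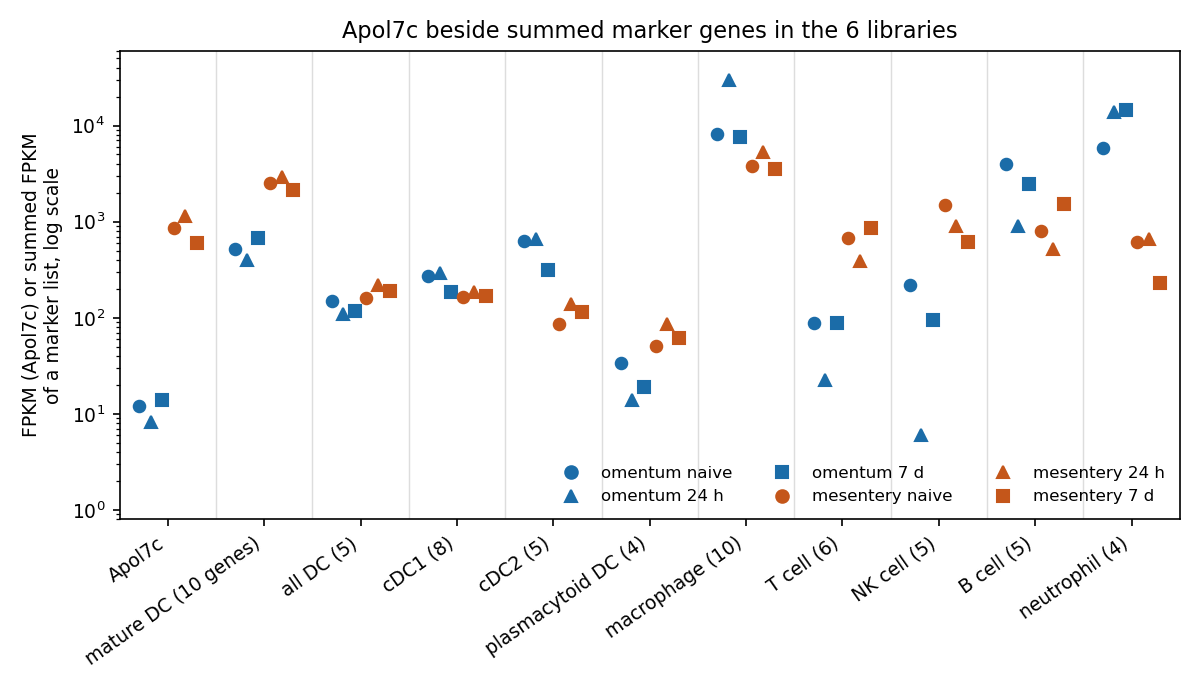
FPKM of Apol7c beside the summed FPKM of marker genes of 10 cell types on a log axis, with 1 point per library, colour for the tissue, shape for the time point and the number of genes summed in brackets. Apol7c and the T cell and NK cell sums are higher in all 3 mesenteric libraries than in the omental ones. So are the sums of mature, of all conventional and of plasmacytoid dendritic cells. The macrophage, neutrophil and type 1 and type 2 conventional dendritic cell sums are lower, that of type 1 by a narrow margin. The B cell sums overlap. Most of the macrophage sum is Lyz2.

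The ratio of Apol7c to each of the 10 mature dendritic cell markers was higher in every mesenteric library than in every omental one. Since the mesenteric level of Apol7c chose the family, this follows largely from that choice, and nothing is read from it. Its level was between 0.122 and 0.168 times that of Ccr7 in the omentum and between 0.915 and 1.62 times in the mesentery. Against Relb, an NF-kappaB subunit needed for dendritic cell maturation, the ratio was 0.125 to 0.222 in the omentum and 3.06 to 3.95 in the mesentery. Against Il4i1, an amino acid oxidase of mature dendritic cells, it was 0.219 to 0.323 and 1.78 to 2.10. Markers of type 1 conventional dendritic cells, the subset known for cross-presentation, differed between the tissues in both directions. In naive mice 1 of the 8 was at least 2-fold higher in the mesentery and 3 were lower. The 8 genes summed to 187 to 295 FPKM in the omentum and 165 to 187 in the mesentery, and none had every mesenteric library at least 2-fold above every omental one. Of these, Xcr1 measured 3.81 to 7.01 FPKM in the omentum and 3.63 to 6.74 in the mesentery, and Clec9a 1.77 to 3.99 and 4.14 to 7.18. Itgae, an integrin of this subset, measured 1.74 to 6.96 FPKM in the omentum and 10.2 to 24.8 in the mesentery, and Naaa, a lysosomal amidase, 103 to 168 and 46.1 to 63.3. The tissues overlapped for Xcr1, and did not for Clec9a and Itgae (mesentery higher) or Naaa (omentum higher). The 5 markers common to conventional dendritic cells summed to 110 to 150 FPKM in the omentum and 160 to 219 in the mesentery, with none separated 2-fold.

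The genes whose log2(FPKM + 1) values over the 6 libraries followed Apol7c most closely by Pearson's r, among 1489 genes that reached 10 FPKM and spanned at least 4-fold, included Lad1 (r = 0.999), Gm8221 (0.999), Apol10b (0.999), Insl6 (0.998), Arc (0.997), Il4i1 (0.995), Pfkfb3 (0.994), Eno3 (0.994) and Ppp1r1a (0.994). The 6 points are not independent, since 3 share a tissue, and the tissues form separate clusters, so r serves only to rank the genes. Lad1, which encodes ladinin, measured 1.56 to 2.91 FPKM in the omentum and 70.4 in MY 7 d, 83.7 in MY naive and 125 in MY 24 h. Il4i1, which is also one of the mature dendritic cell markers above, measured 37.7 to 55.1 FPKM in the omentum and 339 to 585 in the mesentery.

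Apol10b was closest to Lad1 (r = 0.999), Apol7c (0.999), Gm8221 (0.998), Arc (0.998) and Il4i1 (0.997). The genes closest to Apol7b were others, among them Dgka (0.995), Tecpr1 (0.995), Txk (0.993) and Stat4 (0.993). Txk, a kinase of T cells and NK cells, measured 3.06 FPKM in OM naive, 0.0253 in OM 24 h and 3.15 in OM 7 d, and 43.3 in MY naive, 30.9 in MY 24 h and 37.0 in MY 7 d. Like Apol7b it was almost absent from OM 24 h and highest in MY naive. The summed markers of NK cells were 218 FPKM in OM naive, 6.06 in OM 24 h and 94.6 in OM 7 d, and 1480 in MY naive, 901 in MY 24 h and 615 in MY 7 d. Those of T cells were 22.5 to 88.9 FPKM in the omentum, with OM 24 h lowest, and 389 to 862 in the mesentery. Their part in the Apol7b values was not tested.

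After ID8 injection few members passed a 2-fold difference from naive in the omental libraries. At 24 h, 1 of the 6 expressed members, Apol9b, was at least 2-fold higher than in OM naive and 1, Apol7b, was at least 2-fold lower. These are 16.7% each, beside 11.9% and 6.45% of all expressed genes, and nothing is read from counts of 1 gene. The Apol7b value of OM 24 h rests on about 5 fragments by the estimate given below. At 7 d, Apol9a and Apol9b were at least 2-fold higher and 0 members were lower. These are 33.3% and 0% of the 6, beside 11% and 1.96% of all expressed genes. With a pseudocount of 5 no member differed 2-fold from OM naive at either time, and with 0.1 a total of 3 were higher at 24 h. The Apol9a difference from OM naive was 0.92 at 24 h and 1.85 at 7 d on the log2(FPKM + 1) scale, and that of Apol9b was 1.32 and 1.88. On the FPKM scale Apol9a was 6.93 times and Apol9b 8.07 times its naive level at 7 d. Apol7c differed from OM naive by -0.50 at 24 h and 0.21 at 7 d, and Apol10b by -0.51 and -0.22.

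In the mesentery no member differed 2-fold from MY naive at either time, except that Apol9b was past 2-fold lower at 24 h with the libraries rescaled to a common sum or with a pseudocount of 0.1. At 24 h, 2.8% of all expressed genes were at least 2-fold higher and 1.52% lower, and at 7 d 0.498% and 2.29%. Apol7c differed by 0.42 at 24 h and -0.50 at 7 d, Apol10b by 0.33 and -0.21, and Apol7b by -0.38 and -0.33. Apol9b was 0.88 lower at 24 h and 0.21 lower at 7 d. Apol9a differed by -0.27 and -0.01.

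Other interferon-stimulated genes were compared over the same libraries. Of 28 listed genes of the type I interferon response, 10 exceeded OM naive by 2-fold or more at 24 h and 0 fell short of it by as much, with a median difference of 0.56. In OM 7 d, 8 were higher and 0 lower, with a median of 0.60. The higher ones were 35.7% and 28.6% of the list, beside 11.9% and 11% of all expressed genes. In the mesentery 0 were higher and 2 lower at 24 h, and 0 were higher and 5 lower at 7 d, with medians of -0.32 and -0.56. The lower ones were 7.14% and 17.9% of the list, beside 1.52% and 2.29% of all expressed genes. The median of all expressed genes was between -0.0044 and 0.0174 in these comparisons. Irf7, a transcription factor that amplifies the interferon response, measured 27.9 FPKM in OM naive, 111 in OM 24 h and 61.1 in OM 7 d. Oasl2, an antiviral protein of the oligoadenylate synthetase family, measured 11.7, 41.6 and 44.3 FPKM. Ddx58, the RNA sensor RIG-I, went the other way, with 25.3, 15.4 and 16.9 FPKM.

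**Figure D4:**
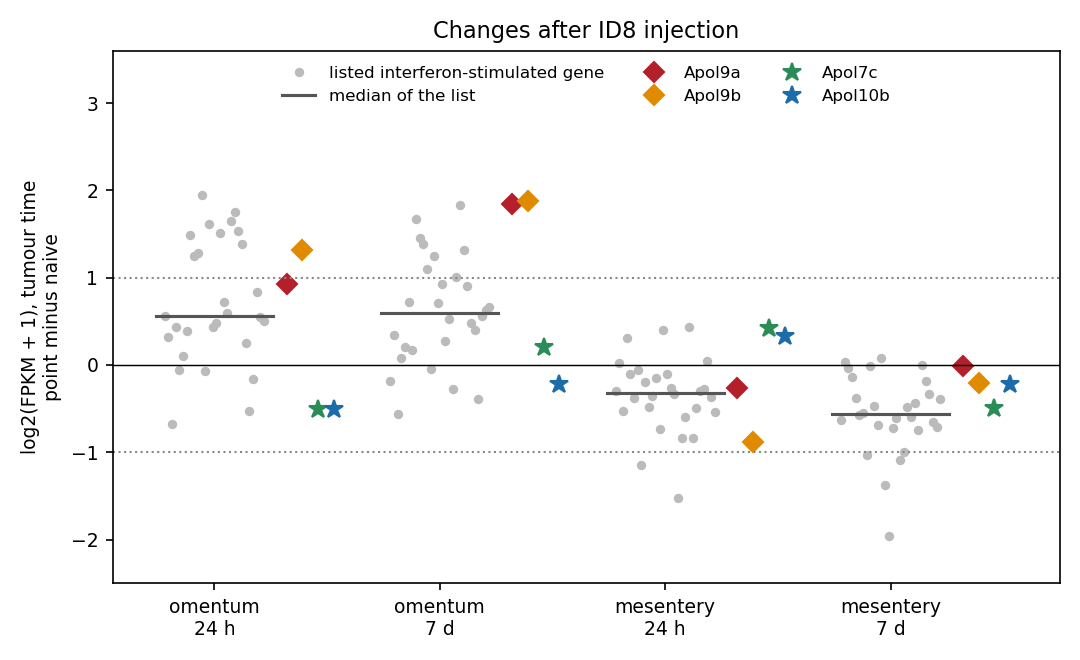
Difference from the naive library of the same tissue on the log2(FPKM + 1) scale for Apol9a, Apol9b, Apol7c and Apol10b and for the 28 listed type I interferon-stimulated genes (grey, with their median as a bar), with dotted lines at a 2-fold difference. Apol9a and Apol9b lie above the median of the list in both omental comparisons, at 1.85 and 1.88 in OM 7 d, and below 0 in the mesentery.

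Naive mice had the opposite order. In MY naive, 8 of the 28 genes were at least 2-fold higher than in OM naive and 0 lower, led by Mx1, an antiviral GTPase, at 22.7 against 1.47 FPKM and Usp18, a brake on interferon signalling, at 66.0 against 12.7. The shares of all expressed genes in naive mice were 8.05% and 8.18%. At 24 h 3 of the 28 were higher and 6 lower, beside 10.2% and 13.9% of all expressed genes. At 7 d 1 was higher and 6 lower, beside 4.99% and 14.1%. Apol9b had the same signs, at 1.45 in naive mice, -0.75 at 24 h and -0.65 at 7 d on the log2(FPKM + 1) scale, and Apol9a was at -0.02, -1.21 and -1.88. Apol7c, Apol10b and Apol7b were higher in the mesentery at all 3 times. The windows of Apol7c and Apol10b hold the GAAANNGAA core and that of Apol7b does not. What part the motif has in these levels was not tested.

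Of 24 expressed interferon-gamma-inducible genes, 3 in OM 24 h and 11 in OM 7 d exceeded OM naive by 2-fold or more, and 0 were lower by as much in either. These are 12.5% and 45.8% of the list, beside the 11.9% and 11% of all expressed genes given above, and the median difference was 0.12 and 0.83. Cxcl10, a chemokine for T cells, measured 12.1 FPKM in OM naive, 124 in OM 24 h and 116 in OM 7 d. Iigp1, a GTPase that attacks parasite vacuoles, measured 2.61, 15.3 and 23.8 FPKM. In the mesentery 1 was higher and 1 lower at 24 h, and 0 were higher and 2 lower at 7 d. Between the tissues, 11 were higher and 0 lower in MY naive, 9 higher and 2 lower at 24 h, and 1 higher and 3 lower at 7 d. These are 45.8% and 0%, 37.5% and 8.33%, and 4.17% and 12.5% of the list. The shares of all expressed genes were 8.05% and 8.18%, 10.2% and 13.9%, and 4.99% and 14.1%. Ido1, a tryptophan-degrading enzyme of dendritic cells, was listed at 0 in OM naive and OM 24 h and at 9.64 FPKM in MY naive and 8.39 in MY 24 h.

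Marker genes of other cells also differed between the omental libraries, in both directions. The 5 mesothelial markers summed to 63.0 FPKM in OM naive, 712 in OM 24 h and 741 in OM 7 d, and to at most 0.439 in the mesentery. Neutrophil markers summed to 5882, 13703 and 14567 FPKM in the omentum and to 230 to 660 in the mesentery. Fibroblast markers summed to 323, 204 and 1115 FPKM in the omentum and to at most 2.71 in the mesentery. The macrophage markers summed to 8225, 29967 and 7551 FPKM, of which Lyz2 was 7054, 24780 and 6791. At 24 h the median difference from OM naive was -2.02 for B cell markers, -1.64 for T cell markers, -3.88 for NK cell markers, -1.60 for endothelial markers and -0.79 for fibroblast markers. What part these cells have in the omental differences of Apol9a and Apol9b was not tested.

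Most genes of the process in which Apol7c has been placed differed by less than 2-fold between the tissues, as did most of all expressed genes. Of 23 expressed genes of the phagosome and of cross-presentation, 0 were at least 2-fold higher and 3 lower in MY naive than in OM naive, with a median difference of 0.04. At 24 h 2 were higher and 4 lower, and at 7 d 0 were higher and 1 lower. These are 0% and 13.0% of the list in naive mice, 8.70% and 17.4% at 24 h, and 0% and 4.35% at 7 d. The shares of all expressed genes were 8.05% and 8.18%, 10.2% and 13.9%, and 4.99% and 14.1%. Cybb, the catalytic subunit of the phagosomal NADPH oxidase, measured 141 to 244 FPKM in the omentum and 36.8 to 65.3 in the mesentery, and was the gene of this list with every omental library at least 2-fold above every mesenteric one. Psmb9, an immunoproteasome subunit, measured 347 FPKM in OM naive and 559 in MY naive. Of the comparisons with naive mice in this list, OM 24 h had 1 gene higher and 1 lower, OM 7 d 0 and 1, MY 24 h 1 and 0, and MY 7 d 0 and 1. The shares of all expressed genes in these comparisons are given above.

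The lipid-carrying apolipoproteins and genes listed with them had a different pattern. Of 10 expressed genes, 7 exceeded OM naive by 2-fold or more at 24 h and 0 were lower, led by Apoc2, the activator of lipoprotein lipase, at 178 against 9.78 FPKM. Apoe, the main apolipoprotein of macrophages, measured 2380 FPKM in OM naive, 17332 in OM 24 h and 1944 in OM 7 d, where Apol7c was lowest at 24 h. Against naive mice 2 were higher and 0 lower in OM 7 d, 4 and 0 in MY 24 h, and 0 and 0 in MY 7 d. Between the tissues, 1 was higher and 2 lower in MY naive, 0 and 5 at 24 h and 0 and 4 at 7 d. These are 10% and 20%, 0% and 50%, and 0% and 40% of the list. Of 20 listed genes of the NF-kappaB and Toll-like receptor response, 4 were higher and 4 lower in MY naive, 3 and 7 at 24 h, and 2 and 8 at 7 d. These are 20% and 20%, 15% and 35%, and 10% and 40% of that list. The shares of all expressed genes were 8.05% and 8.18% in naive mice, 10.2% and 13.9% at 24 h, and 4.99% and 14.1% at 7 d. Against naive mice, OM 24 h had 8 of the NF-kappaB list higher and 2 lower, OM 7 d 1 and 0, MY 24 h 0 and 0, and MY 7 d 0 and 2. The shares of all expressed genes against naive mice are given above.

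The number of fragments behind a value was estimated from the lowest values of the table. If the commonest product of FPKM and transcript length among genes below 0.08 FPKM stands for 1 fragment in each library, the libraries held between 26.7 and 46.8 times 1000000 fragments. On this basis the Apol7c values rest on about 487 to 1351 fragments in the omentum and 49842 to 101334 in the mesentery. The Apol9a value of OM naive rests on about 32 fragments and that of OM 7 d on about 392. Apol7b in OM 24 h rests on about 5 fragments and Apol7a in OM naive on about 3, so ratios to these libraries are imprecise. These estimates cover counting error only and depend on the transcript lengths used. They were not checked against the read depth that the authors' methods state.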

How the data were processed

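The authors sequenced RNA of the sorted cells with paired-end reads of 75 bases, used FastQC 0.11.4 for quality and STAR 2.4.2a for alignment to the mm9 build (NCBI37) with gene models of UCSC, and deposited FPKM per gene symbol from Cufflinks. The deposited FPKM columns summed to 526887 to 713863 with no further scaling between the libraries, and read counts were not used here. From these values, log2(FPKM + 1) differences were taken in Python 3.11.15 (pandas 2.3.3, numpy 2.4.6). Expressed genes were those with 1 FPKM or more in any library, and 2-fold differences were counted. With 1 library per condition no test was made. The code for counting differences and ranking likeness was run on simulated data with large planted differences and little noise. That checks the code only, and not the noise of single libraries or of low genes.

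Positions, transcripts and protein identity came from NCBIM37 and GENCODE M1, which is not the annotation of the authors. Upstream sequences came from RefSeq (GRCm38.p6), where all 10 members matched by symbol. Identity was aligned with Biopython 1.88, and plots were drawn with matplotlib 3.10.9.

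The members and the gene lists were chosen with earlier results of these data known. The genes named are the members, other Apol genes, their neighbours, genes of 5 pathway lists and 15 cell type lists, those most like Apol7c (10) and most like Apol7b and Apol10b (5 each). Some of these are not reported here. For 4 of the pathway lists (not NF-kappaB), these were drawn from the largest differences in either direction, and Cybb, Psmb9 and Apoe come from these. Alternatives were pseudocounts of 0.1 and 5, rescaling by the median ratio or to a sum of 1000000, other filters on low values, and Spearman's rho.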

Additional observations from a re-analysis of the deposited data

Results flagged for a closer look

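For some expressed members the difference from the naive library had opposite signs in the 2 tissues at a time point. How often this holds among all expressed genes is not given here, so nothing is read from the number of such members. Each tissue has 1 library per time point, so these differences between the tissues were not tested. Values are on the log2(FPKM + 1) scale, as the omental difference less the mesenteric one.

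At 24 h it was 2.1997 for Apol9b, which was 1.32 above naive in the omentum and differed by -0.88 in the mesentery, and 1.19 for Apol9a, with 0.92 and -0.27. At 7 d it was 2.09 for Apol9b, with 1.88 and -0.21, and 1.86 for Apol9a, with 1.85 and -0.01. The mesenteric values of Apol9a behind the latter, 0.744 FPKM in MY 7 d and 0.754 in MY naive, were nearly equal.

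Apol7c and Apol10b went the other way at 24 h. The value was -0.92 for Apol7c, with -0.50 in the omentum and 0.42 in the mesentery, and -0.84 for Apol10b, with -0.51 and 0.33. At 7 d it was 0.70 for Apol7c, with 0.21 and -0.50, and 0.72 for Apol7a, with 0.60 and -0.12. In these 4 cases neither tissue differed from naive by 2-fold on this scale. The omental FPKM of Apol7a at 7 d was 11.4 times that of naive, which rests on about 3 fragments. Of the members below 1 FPKM in every library, Apol8 (at both times) and Apol11b (at 7 d) also had opposite signs.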

How the results depend on the processing

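No paired analysis was possible because the labels give no replicate numbers and no condition has more than 1 library. A fit of the tissues with the time point as a block was left out, since the tissue difference chose the family. None of the 168 recomputed differences of the 6 expressed members reversed a 2-fold call, and 137 moved by less than 1.5-fold (0.58 on the log2 scale), among them all 28 of Apol7c. Rescaling by the median ratio moved no member by more than that. Rescaling to a sum of 1000000 shifted the median of all expressed genes by up to 0.27, and the Apol7b difference of MY 24 h from OM 24 h became 5.16.

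With a pseudocount of 0.1, mesentery minus omentum became 7.01 at 24 h and 3.91 at 7 d for Apol7b, 5.63 and 4.57 for Apol10b, -2.15 and -2.71 for Apol9a, and -1.32 and -1.13 for Apol7a. In naive mice it became 2.29 for Apol9b and 1.48 for Apol7a. Against OM naive it became 2.65 at 7 d for Apol9a, 2.13 at 24 h and 2.82 at 7 d for Apol9b, 2.89 and 2.19 for Apol7a, and -3.39 at 24 h for Apol7b. With a pseudocount of 5, mesentery minus omentum became 2.34, 2.41 and 2.12 in naive mice, at 24 h and at 7 d for Apol7b, 2.66, 3.15 and 2.55 for Apol10b, -0.43 and -0.86 at 24 h and 7 d for Apol9a, and 0.58 in naive mice for Apol9b. Against OM naive it became 0.85 at 7 d for Apol9a, 0.52 and 0.83 at 24 h and 7 d for Apol9b, and at 24 h 0.25 for Apol7a and -0.40 for Apol7b.

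Counts of members depend on the low ones. Under the filter of 1 FPKM in every library, Apol7c alone was left, so 1 member was higher in the mesentery at each time and 0 were lower, 1 had every mesenteric library above every omental one, and 0 differed from OM naive. With a pseudocount of 5, 0 members were lower in the mesentery at 24 h or 7 d and 0 differed from OM naive in either direction. With a pseudocount of 0.1, 3 were lower in the mesentery at 24 h and 2 at 7 d, 3 were higher in OM 24 h, and 1 was lower in MY 24 h. With the common sum, 2 were higher in OM 24 h and 1 lower in MY 24 h. Over all genes, 124 were separated between the tissues with a pseudocount of 5 and 122 under the strict filter, against 277.

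Without Apol9a and Apol9b, Apol7c held 78.7% of the family in OM 24 h and 78.4% in OM 7 d. Of the 10 genes most like Apol7c, 2 were among the 25 tied at the highest Spearman's rho. Of the 5 most like Apol10b, 3 stayed by Spearman's rho. Of the 5 most like Apol7b, 1 stayed by Spearman's rho, 0 with a pseudocount of 0.1, 2 with 5 and 3 with the common sum. The strict filter left Apol7c alone, and values below 1 FPKM are limited by depth.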
